A study of Mus musculus with 6 samples.

Results

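The genes described here are 9 that mark homeostatic microglia, the resident macrophages of the brain in their resting state: P2ry12, P2ry13, Tmem119, Sall1, Cx3cr1, Siglech, Gpr34, Olfml3 and Selplg. They were given by name and are 9 of the 55487 genes in the count files. RNA sequencing was done on 6 libraries of microglia cultured from the cortex of mouse pups at postnatal day 1 to 3 from a CAG::CreERT2; Nr1d1 fl/fl line. In 3 libraries the pups lacked the recombinase (Cre-) and in 3 they carried it (Cre+). All 6 cultures, Cre- and Cre+ alike, received 1.5 µM of 4-hydroxytamoxifen (4-OHT) for 2 days, the ligand that lets CreERT2 enter the nucleus. The CAG promoter drives CreERT2 in nearly every cell type, so the recombinase was not limited to microglia. The cells had grown among other glia in serum and in medium that contained GM-CSF, a myeloid growth factor, before they were shaken off. Nr1d1 encodes REV-ERBα, a nuclear receptor of the circadian clock that represses transcription.

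These genes are known as the signature of microglia that survey the healthy brain. P2ry12 and P2ry13 encode receptors for ADP, Gpr34 a receptor for lysophosphatidylserine, and Cx3cr1 the receptor for the neuronal chemokine fractalkine. Siglech encodes a cell surface protein of the family of sialic acid-binding lectins. Tmem119 encodes a transmembrane protein used as a microglial marker, and Selplg the ligand of selectins on leukocytes. Olfml3 encodes a secreted matrix protein. Sall1 encodes a zinc finger transcription factor required for microglial identity. Expression of many of them in the brain is known to depend on local signals, above all TGF-beta.

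In GRCm38 coordinates, P2ry12 (chr3:59216272-59262871, minus strand) and P2ry13 (chr3:59207892-59210882, minus strand) lay 5389 bases apart. Tmem119 (chr5:113793729-113800516, minus strand) and Selplg (chr5:113818536-113832644, minus strand) lay 18019 bases apart. Olfml3 is at chr3:103722222-103738001 on the minus strand, Sall1 at chr8:89027235-89044162 on the minus strand, and Cx3cr1 at chr9:119901616-120069879 on the minus strand. Siglech is at chr7:55768178-55778925 on the plus strand and Gpr34 at chrX:13632089-13640858 on the plus strand. All 9 are protein-coding. The span of Med12l, which encodes a Mediator subunit, holds P2ry12 and P2ry13 on the opposite strand and shares 9 exon bases with P2ry12. The span of Cask, a scaffold protein gene, holds Gpr34 on the opposite strand with 0 shared exon bases. The antisense gene Gm33858 shares 78 exon bases with Cx3cr1. With 0 shared exon bases, Wdr48, Gorasp1, Csrnp1, Ttc21a, Xirp1, 1700019L13Rik, Gm47043 and Gm49427 also overlap the span of Cx3cr1. Gorasp1, Csrnp1 and Xirp1 are on its strand and the others on the opposite strand. The library kit does not mark strand, so reads in shared bases cannot be assigned to a strand. Med12l had 15 to 45 counts per library, against 35 to 92 for P2ry12 and 168 to 268 for P2ry13. Gm33858 had 0 to 26. Cask had 1395 to 2129, against 22 to 112 for Gpr34. Wdr48 had 1756 to 2596, Gorasp1 1157 to 1387 and Csrnp1 372 to 720, against 666 to 1458 for Cx3cr1. The other genes in the span of Cx3cr1 had at most 38. Unspliced reads of these overlapping genes over the exons of P2ry12, P2ry13, Gpr34 or Cx3cr1 could enter the counts of those members, which was not tested. No member had a stretch of at least 100 bases at 95% identity or more in the transcripts of another gene.

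RefSeq promoter entries (GRCm38.p6) matched 6 of the 9 genes. The 250 bases before the annotated start of 3 of them are shown, because Olfml3 passed the test between the groups, Siglech did not overlap between them, and P2ry13 overlapped between them. Capitals mark any match, on either strand, to 6-letter motifs: AGGTCA, the half-site of REV-ERB and ROR receptors; CACGTG, the E-box of the clock activators BMAL1 and CLOCK; GAGGAA, bound by the macrophage factor PU.1; and CAGACA, bound by SMAD proteins of the TGF-beta pathway.
Olfml3, chr3:103738002-103738251, minus strand: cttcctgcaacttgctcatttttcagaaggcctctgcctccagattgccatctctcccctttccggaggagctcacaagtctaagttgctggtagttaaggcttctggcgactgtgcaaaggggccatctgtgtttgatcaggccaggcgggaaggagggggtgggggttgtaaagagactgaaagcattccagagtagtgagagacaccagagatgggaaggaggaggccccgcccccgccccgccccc
Siglech, chr7:55767934-55768183, plus strand: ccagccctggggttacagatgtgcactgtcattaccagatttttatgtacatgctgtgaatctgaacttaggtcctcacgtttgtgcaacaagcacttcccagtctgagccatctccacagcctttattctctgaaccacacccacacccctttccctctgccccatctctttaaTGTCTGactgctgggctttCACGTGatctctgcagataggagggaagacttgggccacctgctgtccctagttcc
P2ry13, chr3:59210883-59211132, minus strand: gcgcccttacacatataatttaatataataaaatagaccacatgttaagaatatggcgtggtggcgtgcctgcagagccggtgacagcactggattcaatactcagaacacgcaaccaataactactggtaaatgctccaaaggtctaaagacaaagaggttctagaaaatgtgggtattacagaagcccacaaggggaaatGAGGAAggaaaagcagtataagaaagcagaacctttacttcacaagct
The Olfml3 window held no match to any of the 4. The Siglech window held CACGTG at 56 to 51 bases before the start, and the reverse complement of CAGACA at 75 to 70 bases before it. The P2ry13 window held GAGGAA at 48 to 43 bases before the start. AGGTCA was found in 13.8% of 27025 promoter windows of the same length, CACGTG in 6.05%, GAGGAA in 23.1% and CAGACA in 17.1%. AGGTCA occurred in none of the 3 windows shown. Among the other members with an entry, the P2ry12 window, which lies in annotated exon sequence and is not printed, held the reverse complement of AGGTCA at 163 to 158 bases before the start and CACGTG at 228 to 223 bases before it. The windows of Sall1 and Cx3cr1 held no match. These matches describe letters in the windows and were not tested as binding sites.

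Total counts per library ran from 87545868 to 93942161 in Cre- and from 93701215 to 110909129 in Cre+ cultures. The floxed gene was low in all libraries. Nr1d1 was at 2.35, 1.20 and 1.64 counts per 1000000 (CPM, on library sizes scaled by the trimmed mean of M-values, TMM) in Cre- and at 1.00, 0.945 and 1.08 in Cre+ replicates 1 to 3. The groups did not overlap, but the change in Nr1d1 (log2 fold change -0.77, SE 0.25) did not pass the test (adjusted p = 0.094, edgeR quasi-likelihood). Counts over the whole Nr1d1 gene do not separate exons left in place from those removed.

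The 9 genes spanned a 1544-fold range of level in these cultures, with Selplg at the top and Siglech at the bottom. Levels between genes are given as FPKM (CPM per kilobase of exon), the scale that corrects for gene length. Selplg was at 45.4, 46.1 and 45.9 FPKM in Cre- replicates 1 to 3 and at 37.3, 41.1 and 40.3 FPKM in Cre+ replicates 1 to 3. It ranked 1003 among all genes by mean FPKM. Olfml3 was at 9.25, 8.60 and 9.25 FPKM in Cre- and at 6.51, 7.44 and 8.40 FPKM in Cre+, rank 3488. These were the only members above the median of the 11429 genes tested, 3.42 FPKM (quartiles 1.16 and 10.8). All 9 together held 0.0219% to 0.0269% of the counts of a library. Selplg took 70.8% to 73.3% of these counts, and Selplg with Olfml3 90.9% to 94.5%.

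The fractalkine receptor gene Cx3cr1 was the third most abundant, at 2.00, 2.66 and 1.60 FPKM in Cre- and 2.92, 2.59 and 3.01 FPKM in Cre+, rank 6693. Tmem119 was at 1.07, 1.51 and 1.19 FPKM in Cre- and 1.05, 1.26 and 0.785 FPKM in Cre+, rank 9036. P2ry13 was at 1.21, 0.707 and 0.768 FPKM in Cre- and 0.934, 0.709 and 0.773 FPKM in Cre+, rank 9937. The ranges of Tmem119 and P2ry13 over the 6 libraries overlapped, so their order was not set beyond the spread. Within a library, Tmem119 was the higher of the 2 in 5 of 6.

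The remaining 4, among them the ADP receptor and the transcription factor most used to define microglia, were close to the floor of the data. Gpr34 was at 0.437, 0.469 and 0.581 FPKM in Cre- and 0.367, 0.112 and 0.182 FPKM in Cre+, rank 12640. P2ry12 was at 0.157, 0.155 and 0.392 FPKM in Cre- and 0.223, 0.377 and 0.242 FPKM in Cre+, rank 13755. Even the P2ry12 library with the most counts held only 92 of them. Sall1 was at 0.113, 0.0930 and 0.0618 FPKM in Cre- and 0.122, 0.120 and 0.169 FPKM in Cre+, rank 16976. Siglech was at 0.0371, 0.0441 and 0.0481 FPKM in Cre- and 0.0213, 0.00946 and 0.00578 FPKM in Cre+, rank 25973. Siglech rested on 11, 14 and 15 counts in Cre- and 8, 3 and 2 counts in Cre+. Neighbours Gpr34 and P2ry12, and P2ry12 and Sall1, had overlapping ranges over the 6 libraries. Within a library, Gpr34 was above P2ry12 in 4 of 6, and P2ry12 above Sall1 in all 6. In Cre+ the mean of P2ry12, 0.281 FPKM, lay above that of Gpr34, 0.220 FPKM. Sall1 and Siglech did not overlap.

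**Figure D1:**
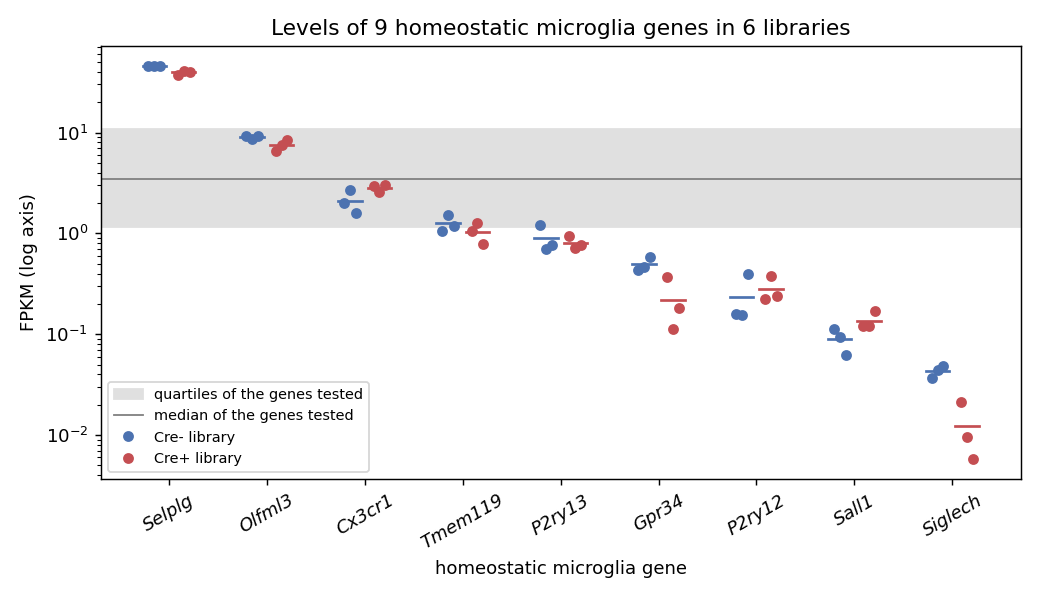
FPKM (log axis) of the 9 homeostatic microglia genes, ordered by mean level; points are libraries (blue Cre-, red Cre+) and short lines are group means (n = 3). The grey band spans the quartiles of the 11429 genes tested, 1.16 to 10.8 FPKM, and its line their median. Selplg lies above the band, and both group means of the 5 genes from P2ry13 to Siglech lie below its lower edge.

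Most of the 9 genes were low beside other genes of the same libraries. The general macrophage genes had a median of 306 FPKM (20 genes), with Lyz2, lysozyme, at the top of all genes in the files. Genes of disease-associated microglia had a median of 382 FPKM (21 genes) and took 18.9% to 19.2% of all counts, led by Spp1, osteopontin. The 38 other genes counted as homeostatic had a median of 6.70 FPKM, against 0.851 for the 9. That list was split. Ctss, a lysosomal protease and its most abundant gene, was at 7900 to 8239 FPKM per library, whereas 10 of the 38 were under 1 FPKM.

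Within each library, the receptor gene Csf1r, on which microglia depend for survival, was 183 to 535 times as abundant per length as P2ry12 and 1.56 to 2.08 times as abundant as Selplg. Csf1r over Tmem119 was 54.9 to 103. Csf1r and these comparisons were chosen after the levels had been seen.

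The labels call the cells microglia. Against defining markers, all 20 macrophage genes passed the filter. However, Aif1, which encodes the microglial marker IBA1, was the lowest of them at 1.70 FPKM. In mean FPKM, Tmem119, P2ry13, Gpr34, P2ry12, Sall1 and Siglech were under it. Aif1 was singled out after the levels were seen. Genes of border macrophages and monocytes had a median of 0.134 FPKM, with Ms4a7 at the top (19.9 FPKM). Genes of dendritic cells and the GM-CSF response had a median of 0.254 FPKM, led by Itgax, which encodes the integrin CD11c (73.6 FPKM). Markers of astrocytes (median 0.0454 FPKM), the oligodendrocyte lineage (0.0675), neurons (0.0413), fibroblasts and mural cells (0.0240) and endothelium (0.0453) were mostly near 0. The highest in each were Aldoc, Cnp, Rbfox3, Acta2 and Flt1, at 9.74, 7.13, 0.142, 0.214 and 1.65 FPKM. In bulk RNA, fewer cells that express a gene and less RNA per cell cannot be told apart. Freshly isolated microglia were not analysed here, so these levels have no reference from the brain.

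**Figure D2:**
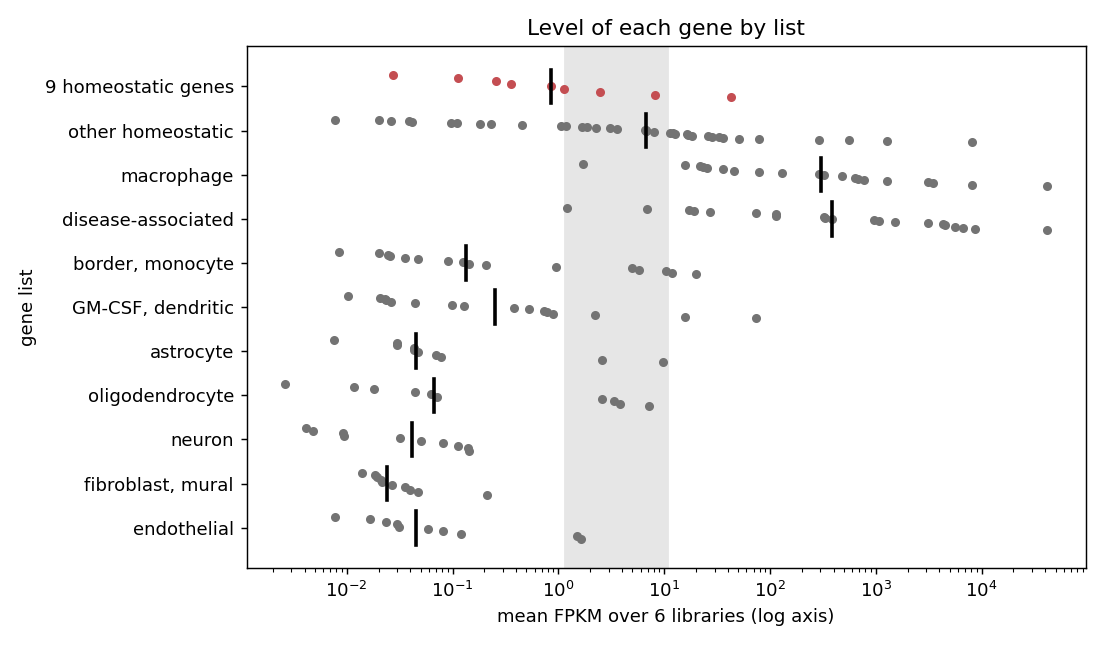
Mean FPKM over the 6 libraries (log axis) of each gene in the 9 homeostatic genes (red) and in 10 other lists (grey), with a black line at each list's median and a grey band over the quartiles of the genes tested. The median of the 9 genes, 0.851 FPKM, lies below those of the other homeostatic genes (6.70), macrophage genes (306) and disease-associated genes (382), and above those of the markers of other brain cells.

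Between Cre+ and Cre- cultures, Selplg and Olfml3 were lower in Cre+, and no member rose past the test. Of the 9 genes, 5 exceeded 1 CPM in at least 4 libraries and were tested. Both calls were toward lower values in Cre+, against 293 of 11429 genes tested, 2.56%, called lower and 5.07% called in either direction (579 genes, adjusted p at most 0.05, edgeR quasi-likelihood). For the direction in which no member was called, higher in Cre+, the share was 2.5%. Counts over 5 genes are a description and were not tested as a group. The median log2 fold change of the 5 was -0.22, and that of all genes tested 0.00.

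Selplg stood at 195, 200 and 202 CPM in Cre- and at 161, 177 and 175 CPM in Cre+. The lowest Cre- value exceeded the highest Cre+ value. Its mean was 199 ± 3.47 (SD, n = 3) in Cre- and 171 ± 8.39 (SD, n = 3) in Cre+, a log2 fold change of -0.22 (SE 0.05, 95% interval -0.32 to -0.12, adjusted p = 0.0137 by edgeR). The call was lost without Cre- replicate 2 (adjusted p = 0.0502), Cre- replicate 3 (0.0530) or Cre+ replicate 1 (0.0633), and the log2 fold change over all leave-one-out fits ran from -0.25 to -0.18.

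Olfml3 stood at 57.4, 53.9 and 58.7 CPM in Cre- and at 40.6, 46.2 and 52.5 CPM in Cre+. The groups did not overlap, although Cre+ replicate 3 lay close to Cre- replicate 2. The mean was 56.7 ± 2.5 (SD, n = 3) in Cre- and 46.4 ± 5.96 (SD, n = 3) in Cre+, a log2 fold change of -0.29 (SE 0.08, 95% interval -0.46 to -0.12). The adjusted p by edgeR was 0.0493, just inside the threshold. The call held only without Cre+ replicate 3 (log2 fold change -0.39) and was lost when any of the other 5 libraries was left out, with -0.20 without Cre+ replicate 1. Selplg and Olfml3 were the 2 of the 5 without overlap, both lower in Cre+. Of all genes tested, 24.0% did not overlap, 11.7% with Cre+ lower and 12.3% with Cre+ higher.

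Cx3cr1 went the other way in its values. It was at 9.05, 12.2 and 7.45 CPM in Cre- and 13.3, 11.7 and 13.8 CPM in Cre+. The groups overlapped, since Cre- replicate 2 exceeded Cre+ replicate 2. The log2 fold change was 0.44 (SE 0.15, 95% interval 0.12 to 0.75), which did not pass the test over all genes (adjusted p = 0.113 by edgeR). Without Cre- replicate 2 it was 0.65 and passed (adjusted p = 0.0113), and with no filter on expression it was 0.51 and passed (adjusted p = 4.28e-04).

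Tmem119 and P2ry13 overlapped between the groups. Tmem119 was at 2.48, 3.55 and 2.83 CPM in Cre- and 2.46, 2.94 and 1.85 CPM in Cre+, a log2 fold change of -0.29 with a 95% interval of -0.74 to 0.16 (adjusted p = 0.507 by edgeR). P2ry13 was at 3.08, 1.82 and 2.00 CPM in Cre- and 2.39, 1.80 and 1.98 CPM in Cre+, a log2 fold change of -0.16 with an interval of -0.64 to 0.33 (adjusted p = 0.778 by edgeR). Both intervals include 0 and leave room for changes larger than that of Selplg. P2ry13 and its neighbour P2ry12 did not share a pattern across libraries: P2ry13 was highest in Cre- replicate 1, and P2ry12 in Cre- replicate 3.

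For the 4 genes under the filter, values and an exact 2-sided permutation test are given, which with 3 against 3 cannot go below p = 0.1. Gpr34 was at 0.920, 0.996 and 1.25 CPM in Cre- and 0.776, 0.236 and 0.387 CPM in Cre+, with a Cre+ to Cre- ratio of 0.442 (exact permutation p = 0.1). Siglech was at 0.126, 0.152 and 0.168 CPM in Cre- and 0.0730, 0.0322 and 0.0198 CPM in Cre+, with a ratio of 0.281 (exact permutation p = 0.1). In neither gene did the groups overlap. Low genes as a whole leaned the same way, however. Among 12157 genes under the filter with a mean of at least 5 counts, 26.7% did not overlap, 24.3% with Cre+ lower and 2.43% with Cre+ higher, and the median log2 ratio was -0.61.

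Gpr34 averaged 50 to 100 counts per library, and in the 1435 genes of that range under the filter 13.1% were lower without overlap, with a median log2 ratio of -0.12. Siglech averaged 5 to 10 counts, where 23.8% of 4129 genes were lower without overlap and the median log2 ratio was -0.93. The log2 ratios of Gpr34 and Siglech were -1.18 and -1.83. Without Cre+ replicate 1 they were -1.76 and -2.51. Summed markers of neurons were also lower in Cre+, 0.441 to 0.502 FPKM against 0.578 to 0.787 FPKM in Cre-, with 0 of 10 markers tested. Fibroblast and mural cell markers summed to 0.299 to 0.452 FPKM in Cre+ against 0.464 to 0.603 in Cre-, with 0 of 10 tested. No marker of either list was at 0 in every library. The summed markers of the other brain cells overlapped between the groups. Astrocyte markers summed to 12.1 to 13.3 FPKM in Cre- and 11.9 to 13.4 in Cre+. Oligodendrocyte markers summed to 16.0 to 18.4 and 15.7 to 17.5, and endothelial markers to 3.25 to 3.88 and 3.35 to 3.61. The part of the shifts of low genes and of neuron, fibroblast and mural cell markers in the values of Gpr34 and Siglech was not tested.

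Sall1 differed in direction from Gpr34 and Siglech, with 0.598, 0.498 and 0.335 CPM in Cre- and 0.648, 0.634 and 0.903 CPM in Cre+, a ratio of 1.53 (exact permutation p = 0.1). The groups did not overlap, and Cre+ was higher. The nearest pair, Cre- replicate 1 and Cre+ replicate 2, rested on 52 and 59 counts. In the same range of 50 to 100 mean counts, 5.16% of genes were higher without overlap. P2ry12 was at 0.402, 0.401 and 1.03 CPM in Cre- and 0.575, 0.967 and 0.625 CPM in Cre+ (ratio 1.18, exact permutation p = 0.6). Its groups overlapped, with Cre- replicate 3 above all others. Within Cre-, P2ry12 varied with a coefficient of 59.3%, against 13.5% from counting error alone. When the filter was relaxed and these genes entered the edgeR fit, none passed: the adjusted p ran from 0.0658 to 0.104 for Gpr34, 0.195 to 0.368 for Siglech, 0.292 to 0.430 for Sall1 and 0.684 to 0.742 for P2ry12.

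**Figure D3:**
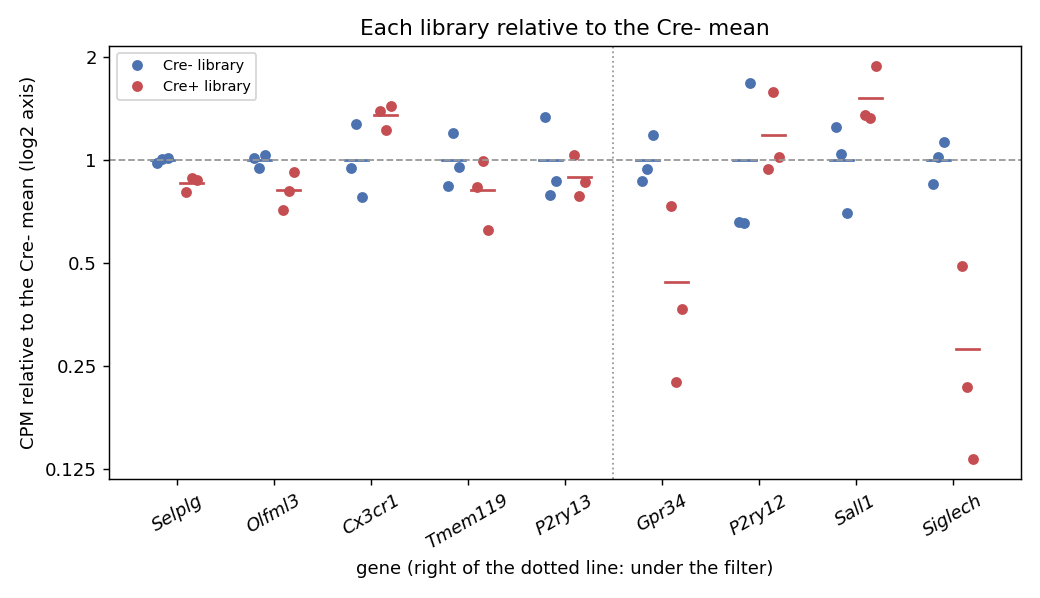
CPM of each library divided by the mean of the Cre- libraries (log2 axis) for the 9 genes; points are libraries (blue Cre-, red Cre+), short lines are group means (n = 3), and genes right of the dotted line were under the filter. The Cre+ libraries lie below all Cre- libraries for Selplg, Olfml3, Gpr34 and Siglech and above them for Sall1, and the other 4 genes overlap.

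The wider set of homeostatic genes held calls in both directions. Of 38 genes, 30 were tested, 4 fell and 1 rose in Cre+, and the median log2 fold change was -0.07 against 0.00 for all genes tested. Of all genes tested, 2.56% were called lower and 2.5% higher, the shares to set beside this and each list below. Those that fell were Hpgd, which degrades prostaglandins (-0.41, adjusted p = 0.00102), Gas6, a ligand of the TAM receptors (-0.49, adjusted p = 0.0135), Ltc4s, the leukotriene C4 synthase (-0.41, adjusted p = 0.0131), and Itgb5, an integrin that takes part in phagocytosis (-0.22, adjusted p = 0.0432). Hpgd fell from 99.0 ± 8.67 to 74.7 ± 1.58 CPM (SD, n = 3 each). Entpd1, the ectoenzyme CD39 that degrades ATP and ADP, rose (0.24, adjusted p = 0.0276). Ctss did not pass (0.00, adjusted p = 0.977). Hpgd and Gas6 passed in all 6 leave-one-out fits. Ltc4s lost its call without Cre- replicate 3 or Cre+ replicate 2. Itgb5 lost its call without any library other than Cre- replicate 2, and Entpd1 without any library other than Cre+ replicate 1.

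**Figure D4:**
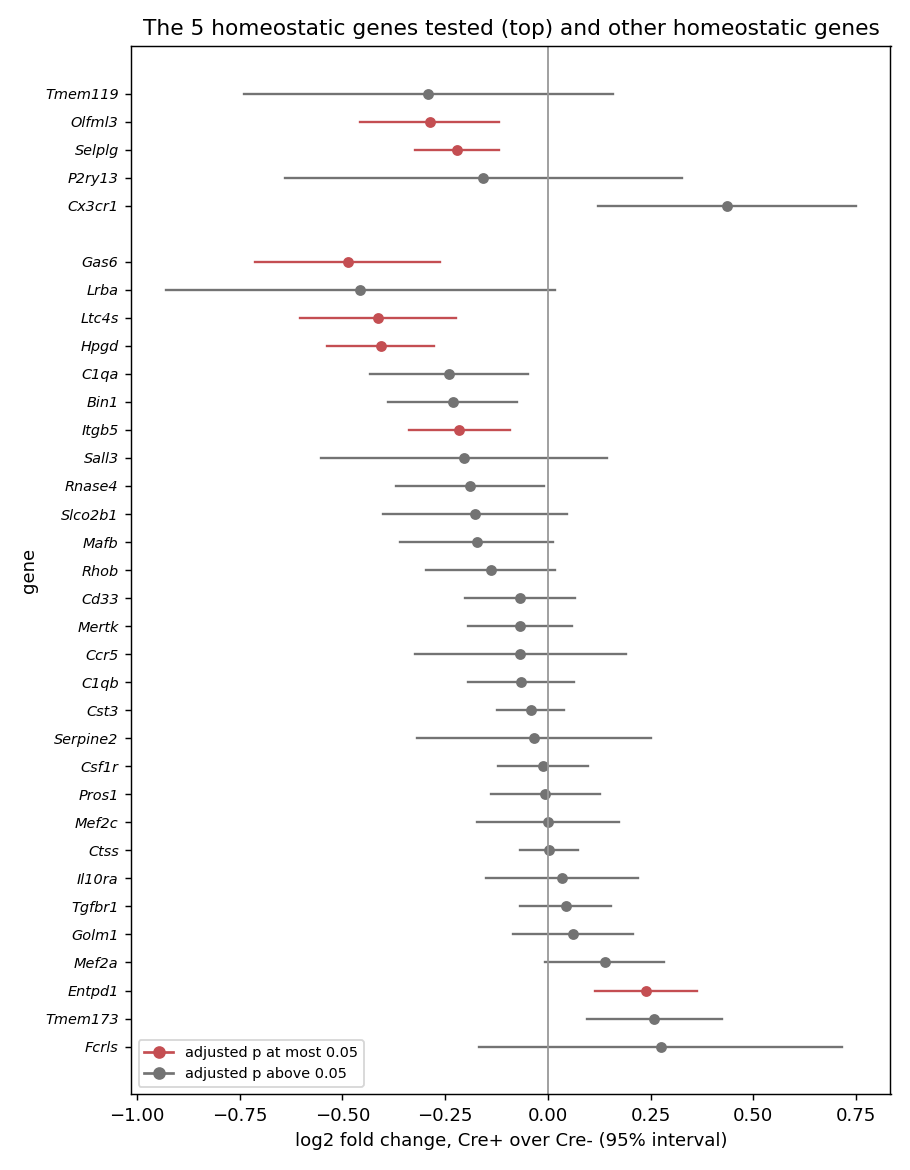
Log2 fold change in CPM, Cre+ over Cre-, with 95% intervals from edgeR, for the 5 homeostatic genes tested (top) and 29 of the 30 other homeostatic genes tested (bottom); red marks an adjusted p of at most 0.05. Of the genes in red, Selplg and Olfml3 at the top and Hpgd, Gas6, Ltc4s and Itgb5 below lie left of 0, and Entpd1 lies right of it.

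Of 27 genes of TGF-beta signalling, 20 were tested, 2 fell and 0 rose, with a median log2 fold change of -0.12. Pmepa1, a TGF-beta-induced gene that limits SMAD activation, fell from 19.0 ± 1.46 to 12.4 ± 0.66 CPM (SD, n = 3 each; log2 fold change -0.62, adjusted p = 9.01e-04) and passed in all 6 leave-one-out fits. Ski, a co-repressor of SMAD proteins, fell from 29.8 ± 2.41 to 23.8 ± 1.20 CPM (log2 fold change -0.32, adjusted p = 0.0274), a call that held only without Cre- replicate 2 or Cre+ replicate 2. Tgfbr1, a TGF-beta receptor and the most abundant gene of the list per length, was at 28.5 FPKM and did not pass (0.04 in log2 fold change, adjusted p = 0.719).

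Among 28 partners of the 9 genes (ligands, G proteins, and enzymes that make or remove their ligands or modify them), 18 were tested, 1 rose and 1 fell, with a median log2 fold change of -0.04. The gene that rose was Entpd1, which removes the ADP that P2ry12 and P2ry13 bind. Nt5e, the ectoenzyme CD73 that acts after it, fell from 4.02 ± 1.23 to 1.81 ± 0.49 CPM (log2 fold change -1.15, SE 0.24, adjusted p = 0.0107), and lost its call without Cre+ replicate 2 or 3. Tyrobp, the adaptor DAP12 that pairs with Siglec-H, was the most abundant at 3495 FPKM and did not pass (-0.11, adjusted p = 0.123). Among 26 relatives in the gene families, 16 were tested and 1 fell, with a median log2 fold change of 0.00. Siglec1, the macrophage lectin CD169, fell from 11.6 ± 0.16 to 7.70 ± 0.83 CPM (log2 fold change -0.59, adjusted p = 0.00562) and passed in all 6 leave-one-out fits. Ccr1, a chemokine receptor and the most abundant relative, was at 71.8 FPKM and did not pass (-0.03, adjusted p = 0.826).

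Genes of other macrophage states moved in both directions beside these. Of 20 macrophage genes, 3 fell and 2 rose: Lyz2 (-0.33), Cd14, a co-receptor for endotoxin (-0.30), and C1qc, a complement subunit (-0.32), were lower, and Cd53 (0.30) and Itgam (0.18) were higher in log2 fold change. Of 16 border macrophage and monocyte genes, 7 were tested. Mrc1, the mannose receptor (0.47), and Clec12a (0.27) rose, and Pf4 (-0.79) and Chil3 (-0.83) fell. The summed level of this list was 54.4 to 55.4 FPKM in Cre- and 49.3 to 57.1 FPKM in Cre+. Itgax was the 1 call among 7 dendritic and GM-CSF genes tested (0.27), and that list summed to 84.4 to 90.9 FPKM in Cre- and 99.96 to 105 FPKM in Cre+. Itgax alone, at a mean of 73.6 FPKM, made up most of that sum. The median log2 fold change of the 7 was 0.10. Among 20 disease-associated genes tested, 6 rose and 3 fell, against 2.5% and 2.56% of all genes tested. Ccl6 (0.75), Clec7a (0.25) and Itgax rose, Apoe fell (-0.58), and Spp1 did not pass (-0.03). Lpl, Gpnmb and Ctsb also rose, and Axl and Timp2 also fell. Axl kept its call in all 6 leave-one-out fits. Lpl, Gpnmb, Ctsb and Timp2 lost theirs in 1, 3, 5 and 5 of the 6. Of markers of the other brain cells, 9 were tested, and only Flt1, a VEGF receptor, was called, higher in Cre+ (0.33). The calls of Cd53, Itgam, Clec12a and Flt1 were each lost in 4 to 6 of the 6 leave-one-out fits. Whether these shifts bear on the values of Selplg and Olfml3 was not tested.

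Among tested genes, Cx3cr1 had the largest change of the 9 in log2 size, and the genes with the most similar profile were sought as those with the smallest root mean square difference in centred log2 CPM over the 6 libraries. They were Dcstamp, which is required for fusion of macrophages into multinucleated cells (difference 0.077), and the processed pseudogenes Gm47692 (0.095) and Gm13772 (0.097). Dcstamp was at 10.0, 13.9 and 7.97 CPM in Cre- and 12.98, 13.2 and 15.6 CPM in Cre+. As for Cx3cr1, its highest Cre- library was replicate 2 and its lowest was replicate 3. Dcstamp was chosen for its likeness over these same libraries, so the shared order is not a separate result. Reads on the pseudogenes may belong to their parent genes, so their values are uncertain.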

How the data were processed

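RNA from 6 libraries of cultured microglia (3 Cre-, 3 Cre+) was sequenced by the authors (SMARTer Ultra Low kit, paired ends). The counts are deposited as whole reads per Ensembl gene, made by the authors with STAR 2.7.9a and featureCounts 2.0.3 on GRCm38 per the submitters' processing notes. The CPM are deposited as counts scaled to the library total, and the FPKM are deposited as CPM per kilobase of exon. Reads of a gene outside its annotated exons, and of genes on the opposite strand of shared exons, could enter or leave a count, since the kit does not mark strand.

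Genes with the biotype rRNA or Mt_rRNA (GENCODE M21, matched by identifier for 55227 of 55487 genes) were removed. As in the study's methods, a gene had to exceed 1 CPM in 4 or more libraries to be tested. The test was edgeR 4.0.16 (quasi-likelihood, TMM, no covariates) in R 4.3.3, with Benjamini-Hochberg adjustment over 11429 genes and a threshold of 0.05. The SE was taken from the fold change and its F statistic, and intervals are at 95%. CPM with an SD are on TMM-scaled library sizes (factors 0.986 to 1.01), and FPKM on library totals. The fit was tested on simulated counts. Replicates are those of the labels, which do not say whether they came from separate cultures, so p-values measure the spread between these libraries. That spread exceeded counting error (chi-square per degree of freedom 18.8 to 25.8 within groups).

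The labels give 2 days of 4-OHT. The 9 genes and all lists were chosen with earlier results of these data known, and no list was tested as a set. Named genes are the 9, Nr1d1, genes overlapping the 9, and the 3 most similar to Cx3cr1. From each list, the most abundant gene and up to 4 called genes with the smallest p are named, with exceptions stated. For the other homeostatic, macrophage and disease-associated lists, every called gene is named. Alternatives were DESeq2 size factors, library totals, no filter, filterByExpr, DESeq2 1.42.0, limma 3.58.1 (voomWithQualityWeights), a replicate block and leaving out each library. The number of per-sample value columns left out was 0. The values of 1 gene of the other homeostatic list are not reported here.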

Additional observations from a re-analysis of the deposited data

How the results depend on the processing

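The count of genes past the threshold was 579, and it was 1528 with no filter on expression, 890 with DESeq2, 430 with the replicate number as a block and 321 to 435 with 1 library left out. The filters move the scale as well: the median log2 fold change of the 11429 genes shifted by 0.08 with no filter and 0.04 with filterByExpr, and by under 0.01 in size with the other scalings. Of the 9 genes, 2 were called; the number was 1 with no filter (Cx3cr1), 0 with filterByExpr (5 at an unadjusted p under 0.05 by edgeR), 2 with DESeq2 and with limma, and 0 to 2 with 1 library left out. It was 0 without Cre- replicate 3 (2 at an unadjusted p under 0.05) and without Cre+ replicate 1 (3 at that level). Selplg had a log2 fold change of -0.14 (adjusted p = 0.245) with no filter and -0.18 (adjusted p = 0.0717) with filterByExpr, and Olfml3 -0.21 (adjusted p = 0.105) and -0.24 (adjusted p = 0.104), both short of the threshold. Cx3cr1 passed with no filter at 0.51. With 1 library left out, Selplg ran from -0.25 to -0.18, Olfml3 from -0.39 to -0.20, Cx3cr1 from 0.28 to 0.65, Tmem119 from -0.45 to -0.13 and P2ry13 from -0.30 to 0.11, the last 2 never past the threshold. The cause of these changes was not tested. The log2 ratio of P2ry12 ran from -0.03 to 0.85, Gpr34 from -1.76 to -0.86, Siglech from -2.51 to -1.50 and Sall1 from 0.41 to 0.81. Same-numbered Cre- and Cre+ libraries did not deviate together (r from -0.0445 to 0.0144). The labels do not say whether the same number marks a shared origin, and these values cannot decide it. The block left 2 of the 9 genes called, with Selplg at -0.22, Olfml3 at -0.29, Cx3cr1 at 0.46, Tmem119 at -0.30 and P2ry13 at -0.13. Depth limits Siglech most, whose Cre+ libraries hold 13 counts together.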
